A study of Mus musculus with 11 samples.

Results

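The trophoblast genes examined here were 9 genes of the deposited RNA-seq table of mouse embryonic stem (ES) cells: the transcription factors Elf5, Cdx2, Tead4, Tfap2c, Gata3 and Gata2, the keratins Krt8 and Krt18, and the placental gene Plac1. They were chosen by name, and 9 of the 24016 genes in the table carried one of these names. All cells were J1 ES cells of strain 129S4/SvJae on a feeder layer of irradiated embryonic fibroblasts, with serum and LIF, and their polyA RNA was sequenced. TKO cells are labelled as knocked out for Dnmt1, Dnmt3a and Dnmt3b, and DKO cells for Dnmt3a and Dnmt3b but not Dnmt1. Into each parent line 1 enzyme was put back, which gave TKO+Dnmt3b1 (1 library), TKO+Dnmt3a2 (2), TKO+Dnmt3a1 (2) and TKO (1), called the TKO family with 6 libraries, and DKO+Dnmt3b1, DKO+Dnmt3a2, DKO+Dnmt3a1 and DKO (1 each), called the DKO family with 4. The 11th library was WT. Each genotype was taken as 1 line, so that a difference between genotypes and a difference between clones cannot be told apart. The labels do not state how the enzymes were expressed, or whether paired libraries stem from 1 clone or from separate cultures.

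The trophoblast is the first lineage set apart in the mouse embryo, and it forms the fetal part of the placenta. Tead4 acts with the Hippo pathway to start the trophectoderm programme, Cdx2, Gata3 and Tfap2c carry it, and Elf5 keeps trophoblast stem cells in that state. The Elf5 promoter is known to be methylated in ES cells and unmethylated in trophoblast stem cells, which makes it a gatekeeper between the lineages, and ES cells without DNA methylation are known for an easier passage to trophoblast.

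RefSeq promoter windows were at hand for 7 of the 9 genes, each covering 250 bases before and 50 bases after a transcript start in build GRCm38.p6. They are shown for the 4 genes on which the lineage barrier and the keratin and Plac1 results below turn, 5′ to 3′ on the gene's own strand, with CG dinucleotides, the sites these enzymes methylate, in capitals. Elf5 has an upstream window at chr2:103411848-103412147 on the plus strand and a downstream window at chr2:103423818-103424117 on the plus strand. Plac1 has windows at chrX:53240061-53240360 and chrX:53114356-53114655 on the minus strand, Krt8 at chr15:102004293-102004592 on the minus strand and Krt18 at chr15:102027966-102028265 on the plus strand.
Elf5 upstream: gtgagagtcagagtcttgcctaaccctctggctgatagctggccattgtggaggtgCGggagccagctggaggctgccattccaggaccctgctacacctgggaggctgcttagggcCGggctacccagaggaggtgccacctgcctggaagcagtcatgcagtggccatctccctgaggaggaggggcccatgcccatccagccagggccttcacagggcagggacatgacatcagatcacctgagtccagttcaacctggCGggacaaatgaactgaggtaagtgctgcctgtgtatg
Elf5 downstream: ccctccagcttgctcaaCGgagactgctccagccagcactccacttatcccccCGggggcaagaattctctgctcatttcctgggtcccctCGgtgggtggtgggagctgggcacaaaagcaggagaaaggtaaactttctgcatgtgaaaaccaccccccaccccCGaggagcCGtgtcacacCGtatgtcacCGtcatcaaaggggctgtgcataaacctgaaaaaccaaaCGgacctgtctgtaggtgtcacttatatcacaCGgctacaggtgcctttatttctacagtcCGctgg
Plac1 first window: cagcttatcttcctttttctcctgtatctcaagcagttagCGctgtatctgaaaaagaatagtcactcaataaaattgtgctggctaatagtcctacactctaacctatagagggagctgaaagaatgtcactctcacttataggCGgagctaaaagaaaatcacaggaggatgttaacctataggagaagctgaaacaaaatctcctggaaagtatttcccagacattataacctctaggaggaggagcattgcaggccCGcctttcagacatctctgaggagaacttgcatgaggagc
Plac1 second window: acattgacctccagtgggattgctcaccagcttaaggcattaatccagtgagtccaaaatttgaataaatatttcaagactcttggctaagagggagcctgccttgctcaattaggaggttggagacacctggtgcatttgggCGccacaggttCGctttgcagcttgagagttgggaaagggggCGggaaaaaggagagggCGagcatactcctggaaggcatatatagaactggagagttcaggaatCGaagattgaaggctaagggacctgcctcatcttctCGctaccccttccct
Krt8: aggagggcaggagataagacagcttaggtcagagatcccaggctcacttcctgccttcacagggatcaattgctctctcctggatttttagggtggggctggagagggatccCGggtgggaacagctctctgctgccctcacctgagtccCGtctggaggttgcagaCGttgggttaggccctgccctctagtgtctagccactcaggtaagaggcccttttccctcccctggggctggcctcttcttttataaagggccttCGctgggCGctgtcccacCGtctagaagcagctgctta
Krt18: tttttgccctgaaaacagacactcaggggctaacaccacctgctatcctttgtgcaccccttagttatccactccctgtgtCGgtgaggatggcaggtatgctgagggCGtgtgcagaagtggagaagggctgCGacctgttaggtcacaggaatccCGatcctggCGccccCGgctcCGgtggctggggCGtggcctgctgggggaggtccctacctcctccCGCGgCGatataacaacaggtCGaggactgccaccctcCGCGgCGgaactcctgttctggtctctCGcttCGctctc

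The motif searched was CG, which reads the same on both strands. The Elf5 windows hold 3 and 10 of them, the Plac1 windows 3 and 6, the Krt8 window 6 and the Krt18 window 17. The median of all 32851 RefSeq windows of this length is 7, with quartiles at 3 and 20, and 94.6% of them hold at least 1. The other windows were richer, with 18 in Cdx2, 22 in Gata3 and 32 and 29 in Gata2. The upstream Elf5 window and the first Plac1 window therefore have more CG than 23.3% of windows, and the richer Gata2 window more than 90.5%. No methylation was measured in these libraries, and which start was used cannot be read from values per gene.

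**Figure D1:**
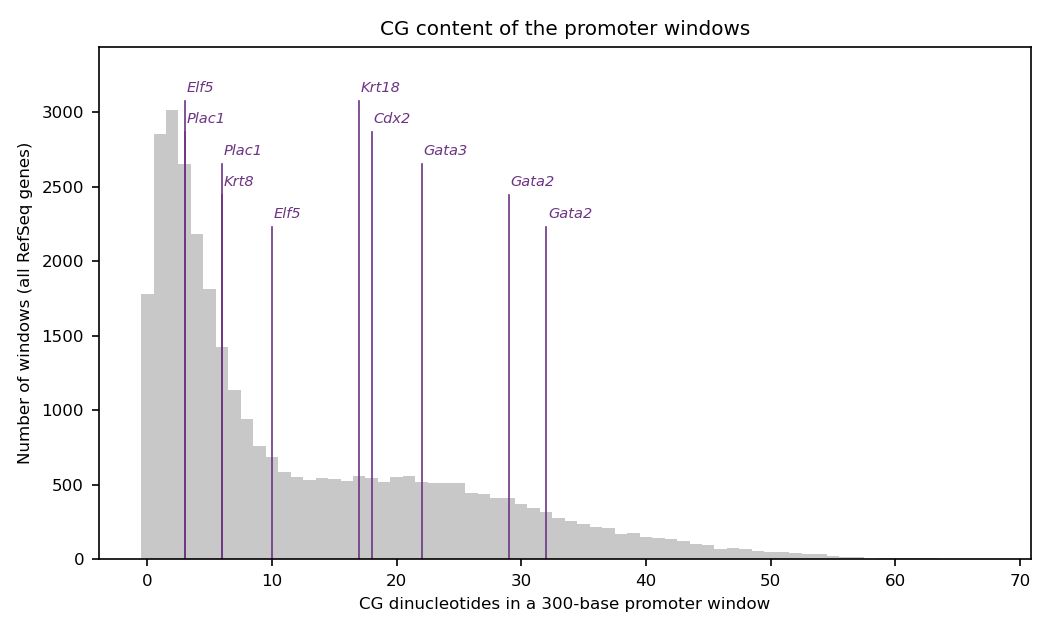
CG dinucleotides per 300-base promoter window (horizontal axis, count) in all 32851 RefSeq windows (grey bars, number of windows), with the 10 windows of 7 trophoblast genes as vertical lines whose heights only space the labels. Elf5 and Plac1 each have a window at 3, below the median of 7, and Gata2 has windows at 29 and 32.

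The deposited values were reads per kilobase and per 1 M reads (RPKM). The depth, estimated from the spacing of low values, was 21.8 to 32.8 M reads per library. Dnmt1 stood at 6.73 to 12.4 RPKM in the TKO family, at 55.9 to 74.5 RPKM in the DKO family and at 71.0 RPKM in WT. Dnmt3a stood at 4.24 RPKM in TKO, 3.63 RPKM in DKO and 22.7 RPKM in WT. In the add-back libraries Dnmt3a stood at 21.8 and 11.1 RPKM in TKO+Dnmt3a2 and 39.4 and 34.2 RPKM in TKO+Dnmt3a1. It stood at 11.4 RPKM in DKO+Dnmt3a2, 17.6 RPKM in DKO+Dnmt3a1, 10.2 RPKM in TKO+Dnmt3b1 and 6.76 RPKM in DKO+Dnmt3b1. Dnmt3b stood at 100.4 RPKM in TKO+Dnmt3b1, 20.9 to 44.4 RPKM in the TKO+Dnmt3a2 and TKO+Dnmt3a1 libraries and 45.3 RPKM in TKO, against 5.68 RPKM in DKO and 25.03 RPKM in WT. In DKO+Dnmt3b1 it stood at 29.6 RPKM. The levels of the enzymes put back thus differed between lines, so that an enzyme and its level cannot be told apart. A value per gene does not tell an intact from a disrupted transcript, so the Dnmt3b level, above WT in TKO, does not check the TKO label, and the TKO lines are named by their labels. All 10 pluripotency markers checked (Pou5f1, Nanog, Sox2 and others) reached 1 RPKM in every library, so that the ES cell label fitted every line. Libraries differed in the levels of marker genes of other cell types, which in bulk RNA do not give cell numbers. The 30 fibroblast markers summed to 2181 RPKM in TKO+Dnmt3b1 and 1667 RPKM in DKO+Dnmt3b1, 353 to 675 RPKM in the other TKO family libraries, 130 to 656 RPKM in the other DKO family libraries and 298 RPKM in WT. The 18 macrophage markers summed to 333 RPKM in TKO+Dnmt3b1 and 303 RPKM in DKO+Dnmt3b1, and to 12.8 to 118 RPKM in the other 9 libraries, lowest in DKO+Dnmt3a2.

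Differences were tested with limma on log2(RPKM + 0.5) over the 14229 genes that reached 1 RPKM in at least 1 library, with calls made where the Benjamini-Hochberg adjusted p was under 0.05. Of the trophoblast genes, 7 passed this filter, and Elf5 and Cdx2, which stayed under 1 RPKM in all 11 libraries, did not. Changes are given on the log2(RPKM + 0.5) scale with their standard error (SE), and the pseudocount makes them smaller for low genes. The p-values measure only the spread between these libraries. In this bulk RNA, fewer expressing cells and less RNA per cell cannot be told apart.

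The trophoblast genes spanned a wide range of levels. Tfap2c, Krt18 and Krt8 were the most abundant per length, at 7.39 to 54.9, 8.21 to 41.9 and 5.53 to 27.5 RPKM over the 11 libraries. Tead4 and Gata2 lay between 1.08 and 6.44 RPKM, Gata3 reached 1 RPKM in 6 of 11 libraries, Plac1 in 2 and Elf5 and Cdx2 in 0. Between the highest and the lowest library Gata3 differed 15.6-fold, Tfap2c 7.43-fold, Krt18 5.10-fold, Krt8 4.97-fold, Gata2 3.12-fold and Tead4 2.78-fold.

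**Figure D2:**
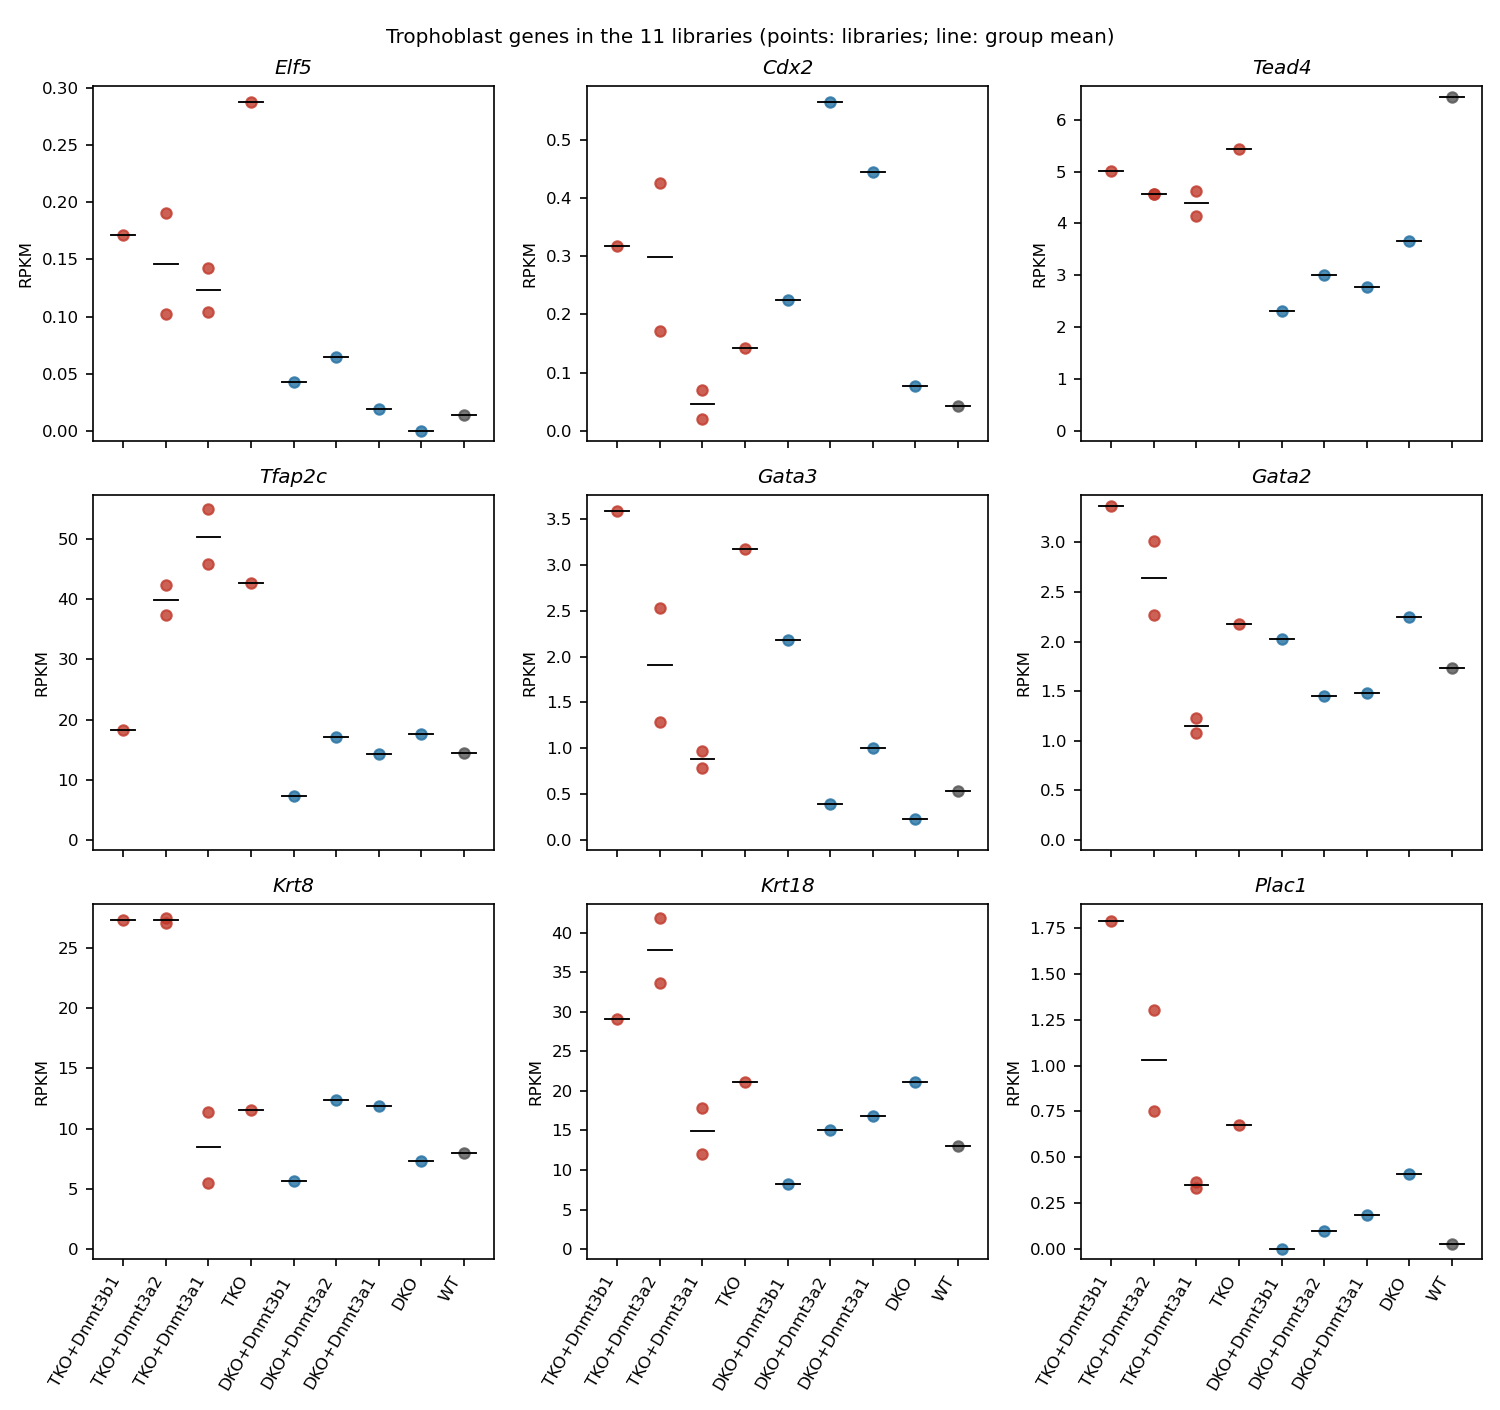
RPKM (vertical axes, each on its own scale) of the 9 trophoblast genes by group, with a point per library and a line at the group mean; red is the TKO family, blue the DKO family and grey WT. Elf5, Tead4 and Tfap2c have every red point above every blue point, while Tead4 is highest in WT at 6.44 RPKM.

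Elf5, the trophoblast stem cell gatekeeper, was low everywhere but separated the families. It stood at 0.171 RPKM in TKO+Dnmt3b1, 0.102 and 0.190 RPKM in TKO+Dnmt3a2, 0.104 and 0.142 RPKM in TKO+Dnmt3a1 and 0.287 RPKM in TKO. It stood at 0.043 RPKM in DKO+Dnmt3b1, 0.065 RPKM in DKO+Dnmt3a2, 0.019 RPKM in DKO+Dnmt3a1, 0.000 RPKM in DKO and 0.014 RPKM in WT. All 6 TKO family libraries lay above all 4 DKO family libraries and above WT, and TKO itself was highest. From the spacing of its values these levels correspond to 8 reads in TKO+Dnmt3b1, 5 and 11 in TKO+Dnmt3a2, 5 and 10 in TKO+Dnmt3a1 and 16 in TKO, a total of 55 reads. The DKO family held 3 reads in DKO+Dnmt3b1, 4 in DKO+Dnmt3a2, 1 in DKO+Dnmt3a1 and 0 in DKO, a total of 8, and WT held 1. The estimated depth was 152.3 M reads in the TKO family, 115.2 M in the DKO family and 32.4 M in WT.

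In the fit without the filter, Elf5 was higher in the TKO family than in the DKO family by 0.34 ± 0.08 on the log2 scale (SE, limma, adjusted p = 0.0371). In that fit 8.55% of 20876 genes were called higher, and 5.60% of these genes were above in every TKO family library. The direction was the same in 17 of 17 alternatives, with changes of 0.18 to 1.03, but the call held in 6 of them, with adjusted p-values of 0.0309 to 0.106. It was lost when any of TKO+Dnmt3a1 replicate 1 or 2, TKO+Dnmt3a2 replicate 2, TKO+Dnmt3b1, DKO+Dnmt3a1, DKO+Dnmt3a2 or DKO+Dnmt3b1 was left out. The call of Elf5 was also lost under settings other than a single library left out. In TKO against WT the change of Elf5 was 0.61 ± 0.13 (limma without the filter, adjusted p = 0.222), and putting an enzyme back into TKO gave −0.34 ± 0.11 with Dnmt3a1, −0.29 ± 0.11 with Dnmt3a2 and −0.23 ± 0.13 with Dnmt3b1 (adjusted p = 0.472, 0.557 and 0.386).

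Cdx2, the caudal-type homeobox factor of the trophectoderm, did not follow the families. It stood at 0.318 RPKM in TKO+Dnmt3b1, 0.425 and 0.171 RPKM in TKO+Dnmt3a2, 0.021 and 0.070 RPKM in TKO+Dnmt3a1 and 0.142 RPKM in TKO. It stood at 0.225 RPKM in DKO+Dnmt3b1, 0.565 RPKM in DKO+Dnmt3a2, 0.444 RPKM in DKO+Dnmt3a1, 0.078 RPKM in DKO and 0.043 RPKM in WT. The highest libraries were DKO+Dnmt3a2 and DKO+Dnmt3a1, the lowest were TKO+Dnmt3a1 and WT, and the families overlapped. In reads this was 60 over the TKO family, 80 over the DKO family and 3 in WT. Without the filter the family difference was −0.28 (limma, adjusted p = 0.326), and that of DKO+Dnmt3a2 over DKO was 0.88 ± 0.28 (adjusted p = 0.303).

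Tead4, the DNA-binding partner of the Hippo co-activators, was higher in the TKO family than in the DKO family and highest in WT. It stood at 5.01 RPKM in TKO+Dnmt3b1, 4.56 and 4.57 RPKM in TKO+Dnmt3a2, 4.15 and 4.63 RPKM in TKO+Dnmt3a1 and 5.44 RPKM in TKO. It stood at 2.32 RPKM in DKO+Dnmt3b1, 3.01 RPKM in DKO+Dnmt3a2, 2.77 RPKM in DKO+Dnmt3a1, 3.65 RPKM in DKO and 6.44 RPKM in WT. The families did not overlap, and no knockout or add-back library reached WT. The family difference was 0.63 ± 0.12 (SE, limma, adjusted p = 0.0101) and was called in 20 of 20 alternatives, at 0.46 to 0.70. Against WT the change was −0.23 in TKO and −0.74 ± 0.28 in DKO (limma, adjusted p = 0.561 in DKO), and with chromosome medians removed −0.74 in TKO (adjusted p = 0.276) and −0.82 in DKO (adjusted p = 0.463). Tead4 and Gata2 lie on chromosome 6, whose tested genes had a median of 0.48 in TKO against WT, of −0.47, −0.35 and −0.35 in TKO with Dnmt3a1, Dnmt3a2 and Dnmt3b1 against TKO, and of 0.15 between the families.

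Tfap2c, the AP-2 gamma factor of trophoblast and germ cells, was called between the families in every alternative run. It stood at 18.2 RPKM in TKO+Dnmt3b1, 42.4 and 37.3 RPKM in TKO+Dnmt3a2, 45.8 and 54.9 RPKM in TKO+Dnmt3a1 and 42.7 RPKM in TKO. It stood at 7.39 RPKM in DKO+Dnmt3b1, 17.0 RPKM in DKO+Dnmt3a2, 14.2 RPKM in DKO+Dnmt3a1, 17.7 RPKM in DKO and 14.5 RPKM in WT. Every TKO family library was above every DKO family library and WT, and within each family the Dnmt3b1 library was the lowest. The mean was 40.2 ± 12.3 RPKM in the TKO family (SD, n = 6 libraries) and 14.1 ± 4.70 RPKM in the DKO family (SD, n = 4 libraries). The libraries of a family are of unlike genotypes and stem from the same parent line, so these SDs do not give a spread of independent replicates. The family difference was 1.39 ± 0.12 on the log2 scale (SE, limma, adjusted p = 0.000458), and it was called in 20 of 20 alternatives at 1.23 to 1.46. In TKO against WT the change was 1.52 ± 0.23 (adjusted p = 0.0899), short of the threshold.

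Gata3, a GATA zinc-finger factor that acts beside Cdx2 in trophectoderm, varied most among the tested transcription factors. It stood at 3.59 RPKM in TKO+Dnmt3b1, 2.53 and 1.29 RPKM in TKO+Dnmt3a2, 0.976 and 0.785 RPKM in TKO+Dnmt3a1 and 3.17 RPKM in TKO. It stood at 2.18 RPKM in DKO+Dnmt3b1, 0.398 RPKM in DKO+Dnmt3a2, 1.00 RPKM in DKO+Dnmt3a1, 0.230 RPKM in DKO and 0.530 RPKM in WT. All 6 TKO family libraries were above WT, the families overlapped, and both Dnmt3b1 libraries were high. The changes were 1.83 ± 0.45 in TKO against WT (limma, adjusted p = 0.168) and 0.99 ± 0.35 between the families (adjusted p = 0.0745), neither called.

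Gata2, the relative of Gata3 that activates placental hormone genes, stood at 3.36 RPKM in TKO+Dnmt3b1, 3.01 and 2.27 RPKM in TKO+Dnmt3a2, 1.08 and 1.23 RPKM in TKO+Dnmt3a1 and 2.18 RPKM in TKO. It stood at 2.03 RPKM in DKO+Dnmt3b1, 1.45 RPKM in DKO+Dnmt3a2, 1.48 RPKM in DKO+Dnmt3a1, 2.25 RPKM in DKO and 1.74 RPKM in WT. Both TKO+Dnmt3a1 libraries were the lowest of the 11, and the families overlapped. The family difference was 0.24 (limma, adjusted p = 0.380).

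Krt8 and Krt18 encode the keratin pair of simple epithelia, of which trophectoderm is the first in development. Krt8 stood at 27.3 RPKM in TKO+Dnmt3b1, 27.5 and 27.1 RPKM in TKO+Dnmt3a2, 5.53 and 11.4 RPKM in TKO+Dnmt3a1 and 11.6 RPKM in TKO. It stood at 5.66 RPKM in DKO+Dnmt3b1, 12.4 RPKM in DKO+Dnmt3a2, 11.9 RPKM in DKO+Dnmt3a1, 7.30 RPKM in DKO and 7.95 RPKM in WT. The 3 highest libraries were those of TKO+Dnmt3b1 and TKO+Dnmt3a2, and the other 8 overlapped.

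Krt18 stood at 29.1 RPKM in TKO+Dnmt3b1, 33.6 and 41.9 RPKM in TKO+Dnmt3a2, 12.0 and 17.9 RPKM in TKO+Dnmt3a1 and 21.1 RPKM in TKO. It stood at 8.21 RPKM in DKO+Dnmt3b1, 15.0 RPKM in DKO+Dnmt3a2, 16.8 RPKM in DKO+Dnmt3a1, 21.1 RPKM in DKO and 13.0 RPKM in WT. The same 3 libraries were highest as for Krt8, and DKO+Dnmt3b1 was lowest. The family difference was 0.76 for Krt8 (limma, adjusted p = 0.169) and 0.69 ± 0.30 for Krt18 (adjusted p = 0.131). Of the other simple keratins, Krt19 was called between the families at 1.28 ± 0.18 (adjusted p = 0.00374), with 7.85 to 16.8 RPKM in the TKO family and 3.95 to 4.78 RPKM in the DKO family. Krt7 stood at 6.36 RPKM in TKO+Dnmt3b1, 6.32 and 7.32 RPKM in TKO+Dnmt3a2, 1.71 and 2.59 RPKM in TKO+Dnmt3a1, 2.31 RPKM in TKO and 0.497 to 2.83 RPKM in the DKO family, against 1.23 RPKM in WT.

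**Figure D3:**
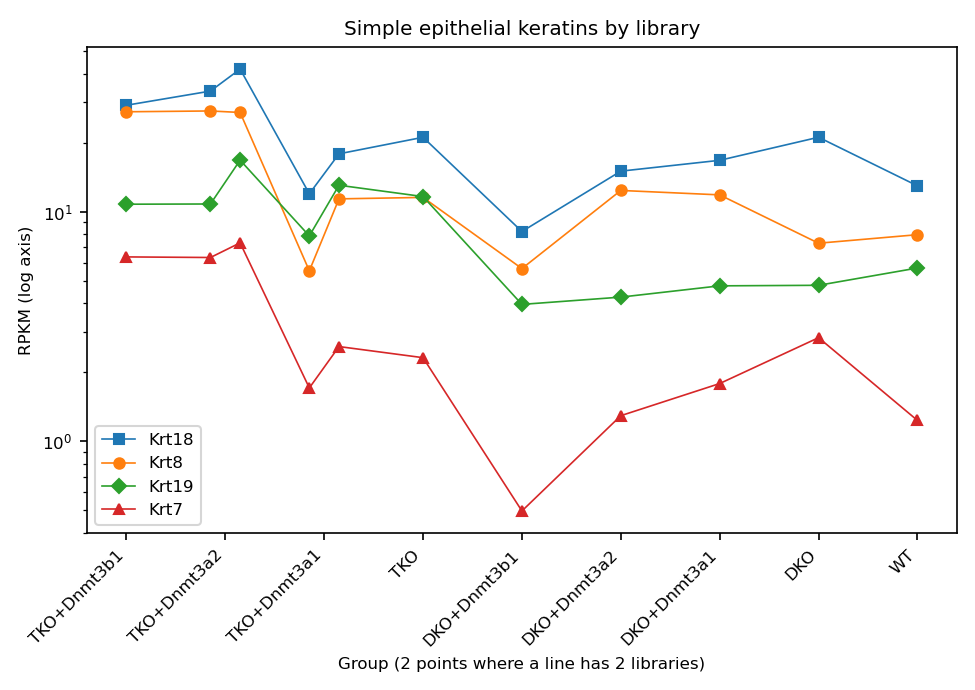
RPKM (log axis) of 4 simple epithelial keratins by group, with 2 points where a line has 2 libraries; lines join the points of a gene only to guide the eye. Krt8, Krt18 and Krt7 are highest in TKO+Dnmt3b1 and TKO+Dnmt3a2, with Krt8 at 27.1 to 27.5 RPKM there and at 12.4 RPKM or less in the other libraries.

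Plac1, an X-linked gene needed for normal placental growth, stood at 1.79 RPKM in TKO+Dnmt3b1, 1.30 and 0.754 RPKM in TKO+Dnmt3a2, 0.331 and 0.366 RPKM in TKO+Dnmt3a1 and 0.677 RPKM in TKO. It stood at 0.000 RPKM in DKO+Dnmt3b1, 0.097 RPKM in DKO+Dnmt3a2, 0.186 RPKM in DKO+Dnmt3a1, 0.409 RPKM in DKO and 0.028 RPKM in WT. The families overlapped through DKO and both TKO+Dnmt3a1 libraries, and WT was below all 6 TKO family libraries. These levels correspond to 136 reads over the TKO family, 21 over the DKO family and 1 in WT. The family difference was 1.02 ± 0.30 (SE, limma, adjusted p = 0.0427), and 9 of 20 alternatives kept the call, at 0.67 to 1.93. It was lost without either library of TKO+Dnmt3a1 or of TKO+Dnmt3a2, without TKO+Dnmt3b1, without DKO+Dnmt3a2 and without DKO+Dnmt3b1, with adjusted p-values of 0.0583 to 0.186. The call of Plac1 was also lost under settings other than a single library left out. In TKO against WT the change was 1.16 ± 0.39 (adjusted p = 0.228).

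Between the families, then, 3 of the 7 tested genes were called higher (Tfap2c, Plac1 and Tead4) and 0 lower, where 14.4% of all tested genes were called higher and 6.66% lower. The 2 libraries in which Plac1 reached 1 RPKM were both in the TKO family. The filter itself thus favoured a higher Plac1 value there, and its call adds little to this count. All 7 had a positive difference, with a median of 0.76, where 62.0% of all genes did, with a median of 0.11. All 7 stayed positive in every alternative run. With quantile normalization the genes called numbered 1233 higher and 1522 lower, where they were 2043 and 947, and the median of all genes was −0.01. Without the DKO+Dnmt3a1 library 5 of the 7 were called. Tfap2c and Tead4 were above in every TKO family library, as were 6.71% of the tested genes. The primitive endoderm markers moved the same way: 11 of 13 tested were called higher in the TKO family and 0 lower (6 without DKO+Dnmt3a2), with sums of 248 to 644 RPKM in the TKO family, 86.4 to 407 RPKM in the DKO family and 123 RPKM in WT. Among the called markers Sox17 reached 1 RPKM only in TKO family libraries, which favoured its call. Of the fibroblast markers 0 of 29 tested were called (limma), with a median of 0.56. Their part in the differences of the trophoblast genes was not tested.

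Other trophoblast genes were examined by lists. Of 25 placental genes other than the 9, 10 were tested. Of them 5 were called higher in the TKO family and 0 lower, where 14.4% and 6.66% of all tested genes were. These called genes numbered 5 in every alternative run. Of these, 4 are named here because of the small count. Hand1, a factor of giant cells, differed by 2.39 ± 0.31 (limma, adjusted p = 0.00263), the connexin Gjb5 by 2.11 ± 0.14 (adjusted p = 0.000181), the X-linked homeobox factor Esx1 by 1.77 ± 0.28 and Ascl2, a factor of the spongiotrophoblast, by 1.35 ± 0.21. Hand1 stood at 6.56 RPKM in TKO+Dnmt3b1, 12.6 and 14.3 RPKM in TKO+Dnmt3a2, 3.89 and 9.49 RPKM in TKO+Dnmt3a1 and 7.76 RPKM in TKO. It stood at 0.509 RPKM in DKO+Dnmt3b1, 1.31 RPKM in DKO+Dnmt3a2, 2.05 RPKM in DKO+Dnmt3a1, 0.884 RPKM in DKO and 0.833 RPKM in WT. Gjb5 stood at 13.1 to 23.1 RPKM in the TKO family, 2.70 to 5.22 RPKM in the DKO family and 4.68 RPKM in WT. Both Hand1 and Gjb5 were higher in every TKO family library than in any DKO family library, as were 6.71% of tested genes. The placental genes Tpbpa, Tpbpb, Prl3b1, Ctsr and Psg21 were listed at 0 in all 11 libraries.

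Of 15 further genes of trophoblast stem cells and trophectoderm, 13 were tested, and their median family difference was −0.07. Between the families 3 were called higher and 1 lower, 2 in all without DKO+Dnmt3a1 or without DKO+Dnmt3a2. For this and the following lists, the shares of all tested genes were 14.4% called higher and 6.66% lower. The water channel Aqp3 differed by 1.79 ± 0.29 (limma, adjusted p = 0.00597), the T-box factor Eomes by 1.20 ± 0.17 (adjusted p = 0.00362), Sox15 by 1.12 ± 0.22 (adjusted p = 0.0122) and the nuclear receptor Esrrb, which ES cells also use, by −0.28 (adjusted p = 0.0499). Eomes stood at 1.74 to 2.93 RPKM in the TKO family, 0.541 to 1.43 RPKM in the DKO family and 1.71 RPKM in WT. Among 20 Hippo pathway genes 3 were called higher (Vgll4, Amotl1 and Stk3) and 0 lower, a share near the 14.4% of all tested genes, and that count was 0 or 1 when any TKO add-back library, DKO+Dnmt3a1, DKO+Dnmt3a2 or DKO+Dnmt3b1 was left out. Of 16 simple epithelial genes Krt19 was called higher and the junction gene Cdh1 and the membrane linker Ezr lower, at −0.55 and −0.27, a count of 3 that was 5 without TKO or DKO and 1 without TKO+Dnmt3b1, DKO+Dnmt3b1, DKO+Dnmt3a2 or DKO+Dnmt3a1.

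**Figure D4:**
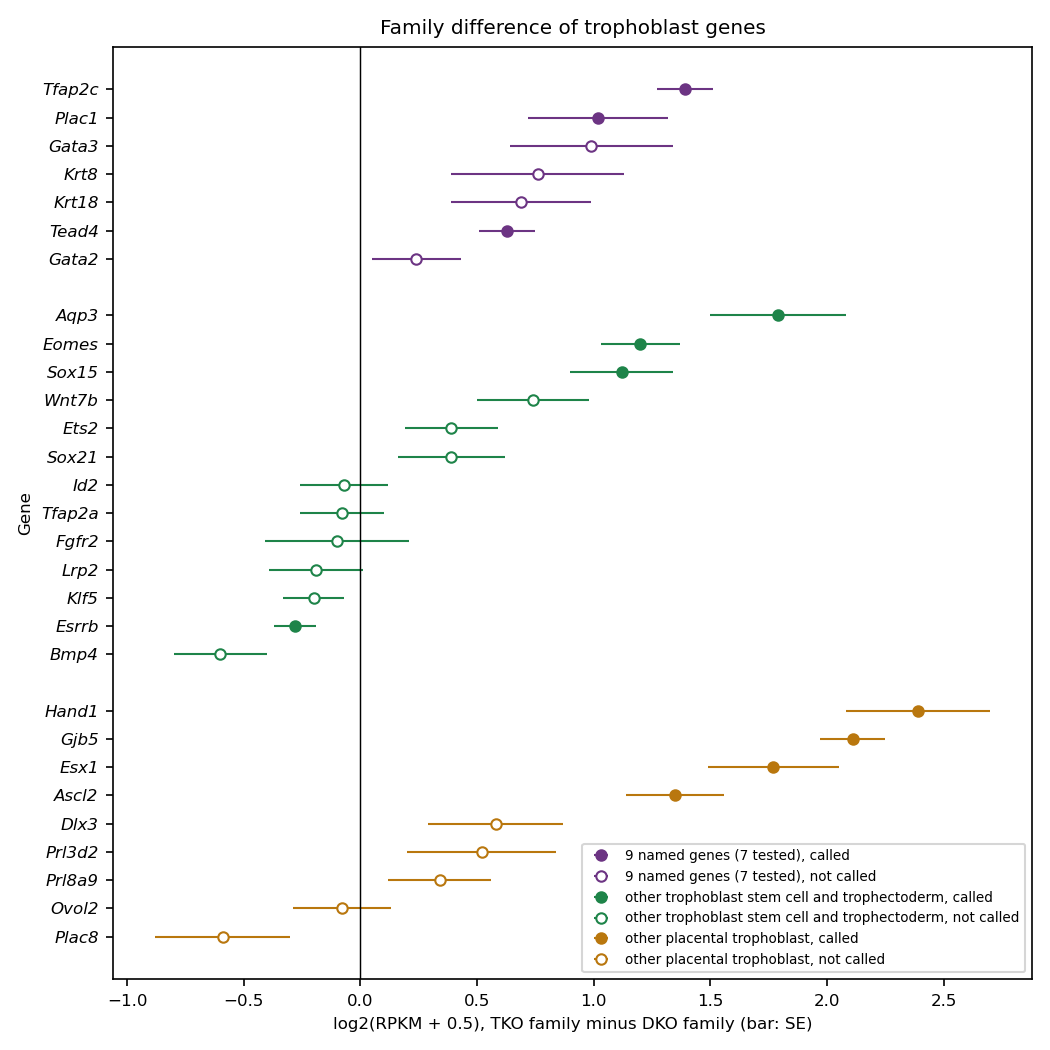
Difference between the TKO and DKO families in log2(RPKM + 0.5), with bars of 1 SE, for the 7 tested trophoblast genes and tested members of the trophoblast stem cell and placental lists; filled points were called by limma. Tfap2c at 1.39, Plac1 at 1.02 and Tead4 at 0.63 are filled in the upper block, and Hand1 at 2.39 and Gjb5 at 2.11 lead the lower one.

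Loss of the enzymes was compared with WT in each parent line. In TKO against WT 0 of the 7 tested genes were called, where 0.344% of all genes were, and 3 of the 7 had an unadjusted p under 0.05 (limma), as did 17.2% of all genes. Of the 7, 6 had a positive change and Tead4 a negative one, with a median of 0.68 where that of all genes was 0.13 (−0.02 with quantile normalization, under which Gata2 was negative too, as it was with chromosome medians removed). Elf5, Tfap2c, Gata3 and Plac1 were above WT in all 6 TKO family libraries, as were 27.3% of the 20876 genes above 0 in some library. In DKO against WT 0 of the 7 were called, as were 0.00% of all genes, and 1 of the 7, Tead4, had an unadjusted p under 0.05 (limma), as did 8.30% of all genes. The median change there was 0.28, with 4 positive and 3 negative. Of the primitive endoderm markers Dab2 and Lama1 were called higher in TKO than in WT.

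Each add-back line was then set against its parent. By limma 0 of 7 trophoblast genes were called in TKO+Dnmt3b1, TKO+Dnmt3a2 and TKO+Dnmt3a1 against TKO, each with 0.00% of all genes called, and 3, 2 and 1 of the 7 had an unadjusted p under 0.05, as did 23.3%, 8.62% and 9.62% of all genes. Plac1 was among the 3 in TKO+Dnmt3b1, and it passed the filter only through that library and a TKO+Dnmt3a2 library, which favoured it there. By limma 0 of 7 were called in DKO+Dnmt3b1 against DKO, with 0.00% of all genes called, and in DKO+Dnmt3a2 and DKO+Dnmt3a1 against DKO, with 0.0281% each. There 3, 0 and 0 of the 7 had an unadjusted p under 0.05, as did 27.2%, 19.6% and 14.1% of all genes. The largest changes were those of Gata3 in DKO+Dnmt3b1 at 1.88 ± 0.45 (limma, adjusted p = 0.0958), Gata3 in TKO+Dnmt3a1 at −1.42 ± 0.39 (adjusted p = 0.435) and Krt18 in DKO+Dnmt3b1 at −1.31 ± 0.33 (adjusted p = 0.102). Over all add-backs together 0 of 7 were called, with 3.93% of all genes (159 higher and 400 lower, or 255 and 389 with quantile normalization), and Tfap2c, the 1 gene of the 7 with an unadjusted p under 0.05 (28.2% of all genes had one), had −0.43 ± 0.15 (limma, adjusted p = 0.110). Without both Dnmt3b1 libraries it had −0.04 (adjusted p = 0.907). These comparisons share the parent libraries.

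The enzymes were compared with each other over both families. With Dnmt3b1 instead of a Dnmt3a isoform put back, 1 of 7 tested genes, Tfap2c, was called lower, where 7.17% of all genes were, and 0 higher, where 13.5% were (1020 genes lower and 1923 higher, or 1814 and 1690 with quantile normalization). Its change was −1.17 ± 0.15 (SE, limma, adjusted p = 0.0033), and without TKO+Dnmt3b1 it was −1.07 (adjusted p = 0.0935). Against its own parent Tfap2c was −1.21 ± 0.23 in TKO+Dnmt3b1 (adjusted p = 0.10) and −1.20 ± 0.23 in DKO+Dnmt3b1 (adjusted p = 0.0794). Gata3 had 1.26 ± 0.44 (adjusted p = 0.0735) and was called, making 2 of 7, when TKO, DKO or DKO+Dnmt3a1 was left out. In the same contrast 28 of 29 fibroblast markers and 15 of 17 macrophage markers were called higher and 0 lower, at medians of 2.66 and 2.78, and 5 of 10 pluripotency markers lower and 0 higher, at a median of −0.43. Among the called macrophage markers Ptprc, Emr1, Itgam and Cd53 reached 1 RPKM only in the Dnmt3b1 libraries, which favoured their calls. The part of these marker lists in the change of Tfap2c was not tested.

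**Figure D5:**
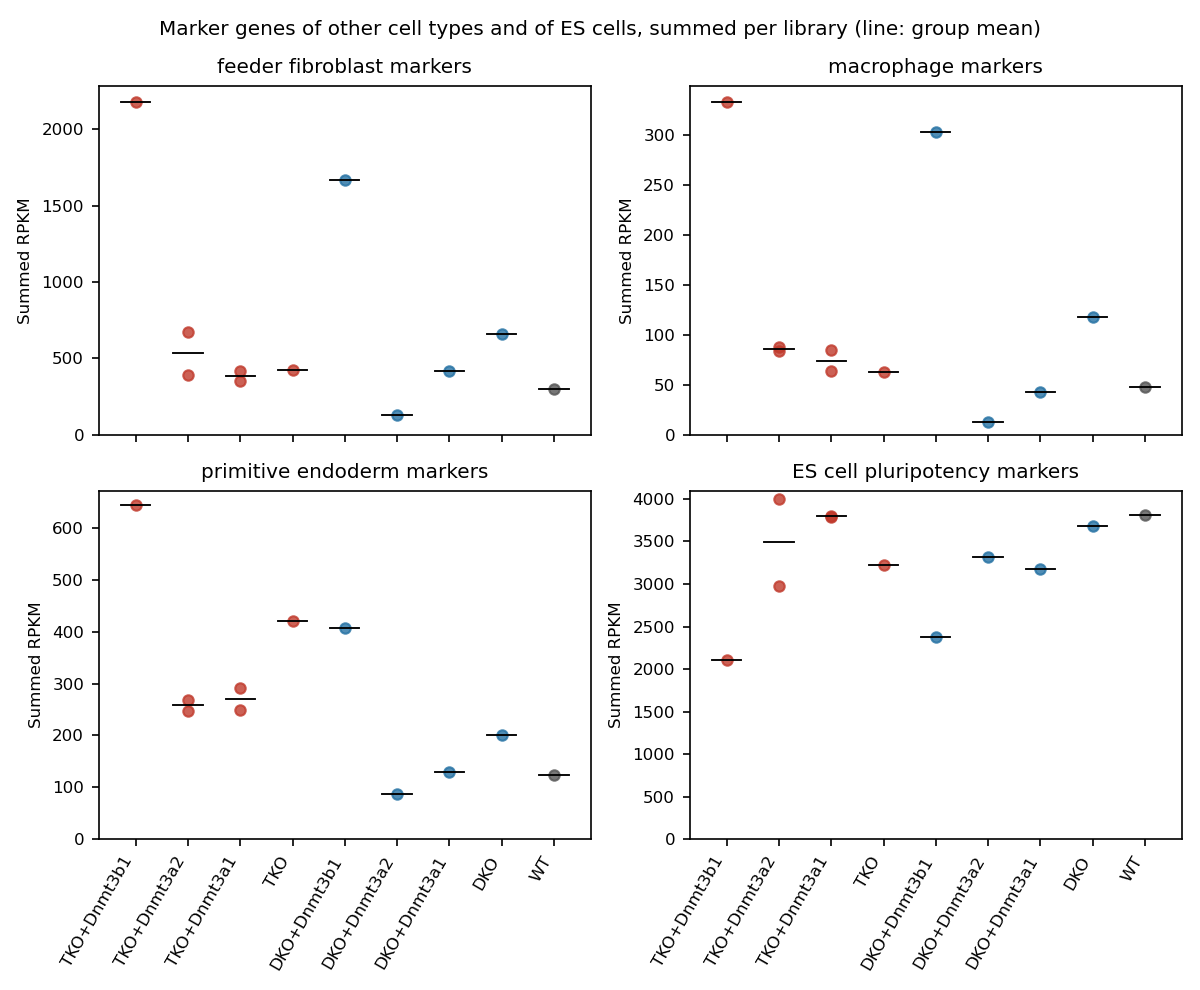
Summed RPKM of 4 marker lists by group, with a point per library and a line at the group mean. The 2 Dnmt3b1 libraries have fibroblast sums of 2181 (TKO+Dnmt3b1) and 1667 (DKO+Dnmt3b1), against at most 675 in the other libraries, and the pluripotency sums are lowest in the same libraries, at 2105 and 2372.

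The lines with 2 libraries each allow a comparison with 2 libraries on each side, TKO+Dnmt3a2 against TKO+Dnmt3a1, which was added after the data were seen. Dnmt3a itself stood at 21.8 and 11.1 RPKM in TKO+Dnmt3a2 and at 39.4 and 34.2 RPKM in TKO+Dnmt3a1. Isoform and level of the enzyme cannot be told apart here. Gata3, Gata2, Krt8, Krt18 and Plac1 were higher in both TKO+Dnmt3a2 libraries than in both TKO+Dnmt3a1 libraries, as were 22.8% of tested genes, and Tfap2c was lower in both, as were 11.7%. By limma 0 of 7 were called, where 0.00703% of all genes were, and 4 of the 7 had an unadjusted p under 0.05, as did 4.29% of all genes. Plac1 was among these 4, and it passed the filter only through TKO+Dnmt3b1 and a TKO+Dnmt3a2 library, which favoured it here. Krt8 differed by 1.72 ± 0.33, Krt18 by 1.33 ± 0.24 and Gata2 by 0.92 ± 0.24, each at an adjusted p of 0.903. Between libraries of the same line Krt8 differed by 0.98 in TKO+Dnmt3a1 and 0.02 in TKO+Dnmt3a2, Krt18 by 0.56 and 0.31 and Gata3 by 0.20 and 0.76 on the same scale.

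Whether an enzyme changed a gene differently in the TKO and the DKO background was tested as an interaction, also added after the data were seen. By limma 0 of 7 genes were called for Dnmt3b1 (0.00% of all genes), Dnmt3a2 (0.00703%) and Dnmt3a1 (0.00%), and 3, 1 and 1 of the 7 had an unadjusted p under 0.05, as did 4.55%, 10.5% and 9.4% of all genes. Plac1 was among the 3 for Dnmt3b1, and it passed the filter only through TKO+Dnmt3b1 and a TKO+Dnmt3a2 library, which favoured it there. Gata3 had −2.45 ± 0.60 for Dnmt3a1 (adjusted p = 0.478), and Krt18 had 1.77 ± 0.47 and Plac1 1.82 ± 0.55 for Dnmt3b1 (adjusted p = 0.995 for both).

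Among the tested genes the keratins and Plac1 varied most alike. Over the 11 libraries, which share lines and depth, Pearson's r of log2(RPKM + 0.5) was 0.89 between Krt8 and Krt18, 0.83 between Krt18 and Plac1, and 0.79 between Krt8 and Plac1, as a description. Outside these 3 genes it was highest between Gata2 and Plac1 (0.71), Gata2 and Krt8 (0.64) and Gata2 and Krt18 (0.62), was 0.60 between Gata3 and Gata2 and 0.55 between Tfap2c and Tead4, and was lowest between Tfap2c and Gata2 (−0.12). Among 14228 genes ordered by r, Krt18 had rank 2 for Krt8 and Plac1 rank 9 for Krt18. For Gata2 the ranks were 371 for Plac1, 861 for Krt8 and 1113 for Krt18. Gata2 had only rank 2965 for Gata3, and Tead4 rank 2872 for Tfap2c. With predicted and clone-named genes left out, the gene most like Krt8 was Krt18 and the gene most like Krt18 was Krt7 (r = 0.966). Among those most like the other genes were Ccdc43 for Tfap2c (0.961), Iffo1 for Gata3 (0.974), Cdo1 for Gata2 (0.914) and Ctrb1 for Plac1 (0.940), with the imprinted transcript H19 close behind for Plac1 (0.935).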

How the data were processed

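Libraries of polyA RNA were prepared with the TruSeq RNA kit (v2.0), which does not mark strand, per the labels' protocols, so reads of genes that overlap or run antisense were not separated. The submitters' processing notes name bcl2fastq 1.8.4, STAR 2.4.0 and build mm9. The deposited RPKM values, made by the authors, were used without further scaling; the counting tool and gene lengths were not given in the sources used here, so no count test was used. Depth was estimated from the spacing of RPKM values of transcripts up to 400 nt (up to 5 reads, tolerance 0.05); reads per gene were derived likewise. Counts this low carry counting error. limma 3.58.1 (R 4.3.3) with an eBayes trend was fitted to log2(RPKM + 0.5), with Benjamini-Hochberg adjustment over 14229 genes. Comparisons with WT, with a parent line and between TKO lines used 11 libraries and 9 group means (2 residual degrees of freedom), so that lines with 1 library were assumed to vary like TKO+Dnmt3a1 and TKO+Dnmt3a2. The remaining 3 used 10 libraries with additive terms for family and for add-back (5 residual degrees of freedom). The genes and lists were chosen with earlier results of these data known. Named were the 9 genes, for each list the most abundant member and up to 3 called members per comparison, and the nearest genes by correlation, leaving out predicted genes; 2 genes under this rule are not reported here. Promoters came from RefSeq (GRCm38.p6). Alternatives were other pseudocounts, filters, scalings and models, removal of chromosome medians, and leaving out libraries. The family fit was run on simulated data with changes of 3 on the log2 scale. These were larger than the family differences of the trophoblast genes, so that run does not bear on changes of their size.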

Additional observations from a re-analysis of the deposited data

How the results depend on the processing

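Of 198 recounts of the called trophoblast genes under alternatives, 188 stayed within 1.5 times. In most comparisons the main count was 0, so most of these recounts set 0 against 0. Between the families a fall from 3 to 2 still counted as kept. The share therefore says little about how stable the calls were. An additive model over the 11 libraries called 1 gene, Tfap2c, in TKO against WT (1.59), TKO+Dnmt3b1 against TKO (−1.20) and DKO+Dnmt3b1 against DKO (−1.20). Group means called 5 genes between the families and 2 for Dnmt3b1 against Dnmt3a; leaving out single libraries gave 2 to 5 and 0 to 2. Values that changed sign, 37 in all, were called in 0 cases. With the additive model they were Gata3 in DKO against WT (0.18), Gata2 and Plac1 in TKO+Dnmt3a2 against TKO (−0.07 each), Krt18 in TKO+Dnmt3b1 against TKO (−0.43), Tfap2c (0.03), Gata3 (−0.37) and Krt8 (−0.14) in DKO+Dnmt3a1, Gata3 (−0.12) and Krt18 (0.27) in DKO+Dnmt3a2, and Gata2 (0.20), Krt8 (0.43) and Plac1 (0.05) in DKO+Dnmt3b1 against DKO. With chromosome medians removed they were Gata2 in TKO against WT (−0.25), Tead4 in TKO+Dnmt3b1 (0.26), TKO+Dnmt3a2 (0.15) and TKO+Dnmt3a1 (0.23) against TKO, Tfap2c in DKO+Dnmt3a2 against DKO (0.07) and Gata2 over all add-backs (0.05). Quantile normalization turned Gata2 in TKO against WT (−0.03) and Tfap2c and Tead4 in DKO+Dnmt3a2 against DKO (0.04 each), and median ratio scaling turned Tfap2c there (0.05). Leaving out single libraries gave −0.64 to 1.07 for Gata3, −0.71 to 0.18 for Krt18 and −0.62 to 0.20 for Plac1 over all add-backs, and −0.97 to 0.83 for Krt8, −1.01 to 0.35 for Krt18, −0.44 to 1.06 for Plac1 and −0.27 to 0.15 for Tead4 in Dnmt3b1 against Dnmt3a; without both Dnmt3b1 libraries Gata3 over all add-backs was −0.26. The cause was not tested. Genes called of all tested, with their range over alternatives, numbered 49 (0 to 319) in TKO against WT, 0 (0 to 71) in DKO against WT, 0 (0 to 3467) in TKO+Dnmt3b1, 0 (0 to 30) in TKO+Dnmt3a2 and in TKO+Dnmt3a1 against TKO, 0 (0 to 3467) in DKO+Dnmt3b1, 4 (0 to 75) in DKO+Dnmt3a2 and 4 (0 to 59) in DKO+Dnmt3a1 against DKO, 559 (0 to 867) over all add-backs, 2990 (651 to 3245) between the families and 2943 (77 to 3516) for Dnmt3b1 against Dnmt3a. TKO+Dnmt3a2 and TKO+Dnmt3a1 share an r2 label, and the deviations of same-numbered libraries correlated at 0.09 over genes. With 2 pairs, this cannot tell whether same-numbered libraries share a batch. With the replicate block 0 of the 7 genes and 6 of all genes were called (1 without it), a count that does not bear on the size of the effect. No paired analysis was possible for the other comparisons because replicate 2 stands on 1 side at most. Limits: 7 of 9 groups have 1 library and the spread of group means rests on 2 lines; Elf5 and Cdx2 rest on a few reads per library, where depth limits what can be seen.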

Other observations

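Among 18 relatives of the transcription factors, 13 were tested, and 6 were called higher in the TKO family than in the DKO family and 0 lower (limma), where 14.4% of all tested genes were called higher. Of these 6, Gata4 and Gata6 are also among the primitive endoderm markers that were higher there. Gata1, also called, reached 1 RPKM only in TKO family libraries, so that it was tested only through the family where it was high. The count was 3 without DKO+Dnmt3a1 and 0 without DKO+Dnmt3a2. Cdx1, the relative of Cdx2, stood at 1.87 RPKM in TKO+Dnmt3b1, 3.97 and 6.28 RPKM in TKO+Dnmt3a2, 7.71 and 6.15 RPKM in TKO+Dnmt3a1 and 0.936 RPKM in TKO. It stood at 0.480 to 1.23 RPKM in the DKO family and 5.72 RPKM in WT, so that TKO overlapped the DKO family and the TKO+Dnmt3a1 libraries were at or above WT. Elf3, the epithelial relative of Elf5, stood at 20.5 to 66.8 RPKM in the TKO family, 9.03 to 23.9 RPKM in the DKO family and 16.7 RPKM in WT.

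Of 10 tested placental genes 8 had a negative and 2 a positive difference for Dnmt3b1 against Dnmt3a, with a median of −0.57; 0 were called lower and 2 higher, where 13.5% of all tested genes were called higher. These 2, the placental prolactin genes Prl3d2 and Prl8a9, differed by 1.87 ± 0.40 (limma, adjusted p = 0.0141) and 1.62 ± 0.27 (adjusted p = 0.00661). Prl8a9 reached 1 RPKM only in TKO+Dnmt3b1 (2.15 RPKM) and DKO+Dnmt3b1 (1.33 RPKM), with at most 0.561 RPKM elsewhere. It was thus tested only through the group where it was high, which favoured its call. Prl3d2 stood at 3.66 RPKM in TKO+Dnmt3b1 and 2.0 RPKM in DKO+Dnmt3b1, against 1.58 and 0.190 RPKM in TKO+Dnmt3a2, 0.345 and 0.586 RPKM in TKO+Dnmt3a1 and 0.090 to 0.361 RPKM in DKO+Dnmt3a2 and DKO+Dnmt3a1. These genes belong to a family of near-identical copies that can share reads, so that their values are uncertain. The same 2 Dnmt3b1 libraries had the highest fibroblast and macrophage sums, whose part in this was not tested.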
